A study of Mus musculus with 6 samples.

Results

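The H19-Igf2 and Kcnq1ot1 domains are neighbouring imprinted regions on distal mouse chromosome 7, and 8 of their genes, chosen by symbol out of 55471 gene identifiers, are described here. H19 and Igf2 stand for the first domain, and Kcnq1ot1, Cdkn1c, Kcnq1, Phlda2, Ascl2 and Slc22a18 for the second. The genes were picked with their values in these 6 libraries already known, so those values are given as a description, with no test. The libraries are RNA-seq of mouse epiblast stem cells, a pluripotent cell type similar to the epiblast of the early embryo, collected after 2 days of serum differentiation as embryoid bodies. The Mixl1 induced group (3 libraries) came from a Mixl1 inducible line given doxycycline at 1 µg/mL for the last 24 h, and the Mixl1 KO group (3 libraries) from cells in which Mixl1, a homeobox factor gene of the primitive streak, was knocked out. Both groups had been grown on a feeder layer of irradiated fibroblasts in medium with 10 ng/mL bFGF and 20 ng/mL Activin A, and were then aggregated for 24 h.

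The labels do not say whether the KO cells received doxycycline, whether the lines share a parent, how many clones were used or whether the inducible line kept its own Mixl1. Line, Mixl1 and drug therefore cannot be told apart as sources of a difference. Whether the triplicates were separate cultures is not stated, so error terms and p-values measure the spread between these libraries, which may be technical. The reads also do not separate the parental alleles.

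Imprinted genes are transcribed mainly from the allele of one parent. In the H19-Igf2 domain, a control region that is methylated on the paternal copy and bound by CTCF on the maternal copy directs shared enhancers to H19 on the maternal chromosome and to Igf2 on the paternal one. In the Kcnq1ot1 domain, the long non-coding RNA Kcnq1ot1 is transcribed from an unmethylated paternal promoter inside Kcnq1, in the antisense direction. Genes around it are silenced on that chromosome. Cdkn1c, Phlda2, Slc22a18 and, early in development, Kcnq1 are thus expressed from the maternal copy, as is Ascl2 in placenta.

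H19 is also the host transcript of the microRNA miR-675, whose hairpin lies within an H19 exon at chr7:142577064-142577147 on the minus strand. The sequences are RefSeq's on GRCm38.p6 and are shown because H19 is the member with the largest difference. Capitals mark both mature arms in the hairpin and the seed, bases 2 to 8, in each mature miRNA.
mir-675 hairpin: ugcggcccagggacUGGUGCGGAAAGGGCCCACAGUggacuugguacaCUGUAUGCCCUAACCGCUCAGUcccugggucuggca
miR-675-5p: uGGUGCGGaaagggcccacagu
miR-675-3p: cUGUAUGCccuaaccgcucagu
The arms carry different seeds. The annotated Mir675 gene had 0 reads in each of the 6 libraries, and its 84 bases are shared with the H19 exon on the same strand, and STAR leaves reads that overlap exons of both genes unassigned. Libraries made from poly(A) RNA do not measure mature miRNAs.

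Each library held between 17490426 and 21026423 reads on genes, and 96.2% to 96.29% of stranded gene reads lay in the column of reads opposite to the first read, which is the one used. Mixl1 itself was higher in the induced libraries, at 433 ± 7.54 CPM in induced cells and 39.8 ± 2.96 CPM in KO cells (SD, n = 3 each; CPM are counts scaled to a common library size after TMM normalisation). Its log2 fold change, induced over KO, was 3.44 (edgeR, adjusted p = 1.66e-22). Which part of Mixl1 was altered is not given in the labels, so the KO reads do not check the knockout. The groups differed widely. At an adjusted p of 0.05 in edgeR's quasi-likelihood test, 62.6% of 15091 genes differed, 31.0% higher and 31.6% lower in induced cells, and the common biological coefficient of variation was 0.0485. In bulk RNA, fewer cells of a type and less RNA per cell cannot be told apart.

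All 8 members passed the filter on low counts. In 5 of them the 3 induced and the 3 KO libraries did not overlap. H19 was the 1 member higher in induced cells, and Igf2, Cdkn1c, Kcnq1 and Ascl2 were the 4 lower ones. Libraries overlapped for Kcnq1ot1, Phlda2 and Slc22a18. Over all tested genes, 67.1% did not overlap between the groups, 33.3% with induced libraries higher and 33.7% with them lower. The 5 members without overlap also differed by at least 2-fold, which held for 16.1% of all tested genes. Since the genes were chosen on this contrast, nothing is read from these counts.

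**Figure D1:**
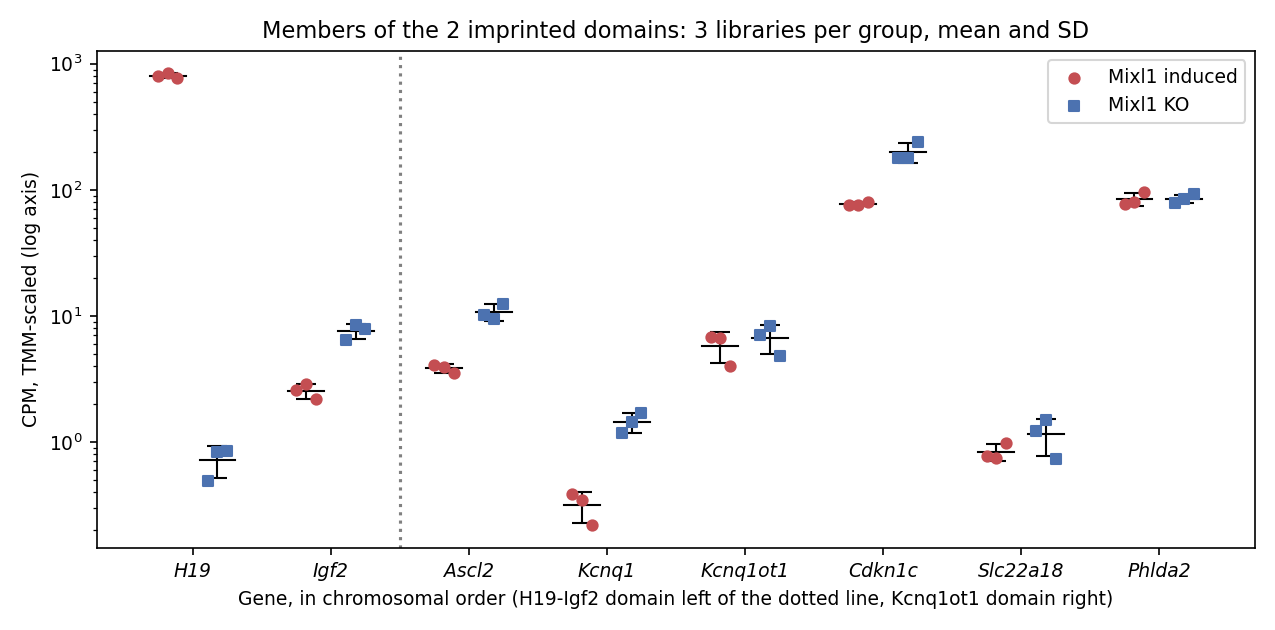
CPM of each member in each library on a log axis, induced libraries (red circles) left of KO libraries (blue squares), with the mean and SD of 3 libraries as bars. H19 lies between 774 and 839 CPM in induced libraries and below 1 CPM in KO libraries, while Phlda2 and Kcnq1ot1 overlap between the groups.

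H19, a long non-coding RNA that is abundant in embryonic and extraembryonic tissues and shut down in most tissues after birth, differed most. It is annotated at chr7:142575529-142578143 on the minus strand of GRCm38 as a lincRNA (ENSMUSG00000000031). The induced libraries held 16590, 14681 and 14173 reads of H19, against 10, 15 and 16 reads in the KO libraries. The groups were far apart, with no induced library near any KO library. Expression was 804 ± 32.7 CPM in induced cells and 0.719 ± 0.200 CPM in KO cells (SD, n = 3 each), a log2 fold change of 10.13. The standard error derived from edgeR's F value was 0.09, smaller than the 0.25 that the authors give. It understates the error here. The KO level rests on few reads, and leaving out single libraries gave log2 fold changes between 9.89 and 10.26.

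Igf2, which encodes a fetal growth factor of the insulin family, went the other way. The gene spans chr7:142650766-142666816 on the minus strand (ENSMUSG00000048583). Induced libraries had 54, 50 and 40 reads of Igf2, and KO libraries 132, 153 and 150 reads. Every induced library was below every KO library, and both groups were low. The mean was 2.55 ± 0.340 CPM in induced cells and 7.59 ± 1.03 CPM in KO cells (SD, n = 3 each), with a log2 fold change of -1.57 (SE 0.16). These counts may miss part of the transcript. Of 5723 exonic bases of Igf2 in GENCODE M21, 3596 are shared on the same strand with the readthrough gene model Gm49394. The annotation used for counting is not given. If it held the same exons, reads there were assigned to neither gene. That would leave 2127 bases (37.2%) in which Igf2 reads could be counted. Gm49394 itself held at most 1 read in any library.

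A second reading of the Igf2 strand came from Igf2os, an RNA transcribed antisense to Igf2. Of its 5337 exonic bases it shares 98 with Igf2 and 1142 with Gm49394, both on the opposite strand. Reads in it on the Igf2 strand may therefore lie in exons of Gm49394. Reads on the strand of Igf2 that fell in Igf2os exons numbered 16, 6 and 5 in induced libraries and 45, 55 and 50 in KO libraries. As with the Igf2 count, each induced library was below each KO library. Igf2os, which is not among the 8 members, averaged 1.77 ± 0.316 CPM in induced cells and 3.68 ± 0.679 CPM in KO cells (SD, n = 3 each). It fell by 1.06 on the log2 scale (edgeR, adjusted p = 0.000132). Ins2, the insulin gene next to Igf2, was listed at 0 reads in all 6 libraries, and Th, the tyrosine hydroxylase gene beyond it, had 2 to 7 reads per library and was not tested.

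Within the H19-Igf2 domain the balance of counted reads was thus reversed between the groups. There were 307, 294 and 354 H19 reads per Igf2 read in the induced libraries, against 0.0758, 0.0980 and 0.107 in the KO libraries. H19 reads outnumbered Igf2 reads in all induced libraries, and Igf2 reads outnumbered H19 reads in all KO libraries, where 13.2, 10.2 and 9.38 Igf2 reads were counted per H19 read. The log2 ratio of the mean H19-to-Igf2 values was 11.73. It is a ratio of counted reads, to which Igf2 may contribute only the part of its exons named above.

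Kcnq1ot1, the non-coding RNA of the second domain, did not separate the groups. It is annotated as a single unspliced block of 93092 bases at chr7:143203458-143296549 on the minus strand (ENSMUSG00000101609). Induced libraries held 140, 117 and 73 reads of Kcnq1ot1, and KO libraries 145, 151 and 91 reads. The libraries overlapped, and replicate 3 was the lowest of its group on both sides. Expression was 5.81 ± 1.58 CPM in induced cells and 6.73 ± 1.79 CPM in KO cells (SD, n = 3 each), with a log2 fold change of -0.21 (SE 0.22). Without single libraries the estimate lay between -0.40 and 0.00. The transcript is long and its reads are few, so per kilobase it had the lowest mean of the members in both groups. How far mRNA selection and the loss of multimapped reads lower this value was not tested.

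Cdkn1c encodes p57, an inhibitor of cyclin-dependent kinases that holds cells in G1. It lies at chr7:143458339-143461050 on the minus strand (ENSMUSG00000037664). The induced libraries gave 1574, 1326 and 1472 reads of Cdkn1c, and the KO libraries 3642, 3267 and 4570 reads. All induced libraries were lower, and KO replicate 3 was the highest library. The means were 77.3 ± 2.63 CPM in induced cells and 199 ± 35.6 CPM in KO cells (SD, n = 3 each), a log2 fold change of -1.37 (SE 0.13).

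Phlda2, which encodes a pleckstrin homology domain protein that limits placental growth, was level between the groups. It lies at chr7:143501545-143503150 on the minus strand (ENSMUSG00000010760). Induced libraries held 1611, 1399 and 1760 reads of Phlda2, and KO libraries 1608, 1520 and 1750 reads. The libraries overlapped throughout. Expression was 84.6 ± 10.0 CPM in induced cells and 84.8 ± 6.89 CPM in KO cells (SD, n = 3 each), a log2 fold change of 0.00 (SE 0.08) that ranged from -0.11 to 0.06 when single libraries were left out.

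Ascl2, a basic helix-loop-helix factor gene needed for the spongiotrophoblast of the placenta and a target of WNT signalling, lies at the edge of the Kcnq1ot1 domain towards Igf2, at chr7:142966829-142969264 on the minus strand (ENSMUSG00000009248). Its reads were 84, 69 and 64 in induced libraries and 210, 170 and 237 in KO libraries. No induced library reached the lowest KO library. The means were 3.83 ± 0.295 CPM in induced cells and 10.7 ± 1.60 CPM in KO cells (SD, n = 3 each), a log2 fold change of -1.48 (SE 0.14).

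Kcnq1 encodes the pore subunit of a voltage-gated potassium channel of heart and epithelia. The gene covers chr7:143106362-143427042 on the plus strand (ENSMUSG00000009545), and Kcnq1ot1 lies within it on the other strand. Kcnq1 had 8, 6 and 4 reads in induced libraries, against 24, 26 and 32 reads in KO libraries. The induced libraries were all lower, at counts close to the limit of detection. The means were 0.316 ± 0.0869 CPM in induced cells and 1.43 ± 0.257 CPM in KO cells (SD, n = 3 each), a log2 fold change of -2.14 (SE 0.35).

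Slc22a18, a gene for a transporter of the organic cation family, was the other member near the limit of detection (chr7:143473736-143499334, plus strand, ENSMUSG00000000154). It had 16, 13 and 18 reads in induced libraries and 25, 27 and 14 reads in KO libraries. The libraries overlapped, since KO replicate 3, at 0.737 CPM, was below the induced libraries at 0.771, 0.743 and 0.983 CPM, and the other KO libraries were above them. The means were 0.832 ± 0.131 CPM in induced cells and 1.15 ± 0.381 CPM in KO cells (SD, n = 3 each), with a log2 fold change of -0.46 (SE 0.31).

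Set side by side, the H19-Igf2 domain held 1 member higher and 1 lower in induced cells, and the Kcnq1ot1 domain none higher, 3 lower and 3 that overlapped. Log2 fold changes in the Kcnq1ot1 domain ran from -2.14 to 0.00 with a median of -0.91, where the median of all tested genes was 0.00. The summed level of H19 and Igf2 was 802, 842 and 776 CPM in induced libraries and 6.93, 9.26 and 8.74 CPM in KO libraries, a log2 ratio of means of 6.60. That of the 6 Kcnq1ot1 domain members was 166, 167 and 185 CPM in induced libraries and 276, 284 and 352 CPM in KO libraries, a log2 ratio of -0.82. The sums therefore differed in opposite directions, and each without overlap. Most of the Kcnq1ot1 domain's difference was that of Cdkn1c, at 77.3 CPM in induced cells and 199 CPM in KO cells. The first sum is H19 almost alone in induced cells. H19 made up 82.1 ± 1.39% of the reads of all 8 members in induced cells and 0.229 ± 0.0546% in KO cells (SD, n = 3 each).

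**Figure D2:**
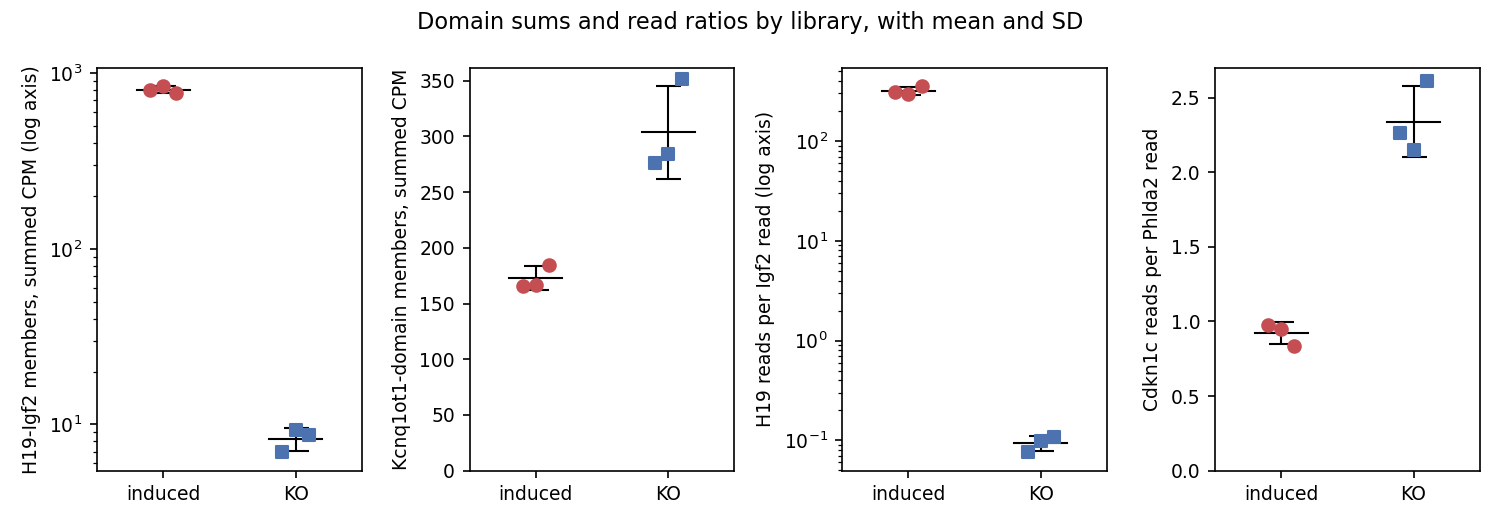
Summed CPM of each domain's members and 2 read ratios per library, induced (red circles) left of KO (blue squares), with the mean and SD of 3 libraries, on log axes where stated. The H19-Igf2 sum is near 807 CPM in induced cells and 8.31 CPM in KO cells, while the Kcnq1ot1 domain sum is 173 CPM in induced cells and 304 CPM in KO cells.

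The protein-coding members of the Kcnq1ot1 domain did not differ by a common factor. Cdkn1c and Phlda2 lie next to each other but for Slc22a18, and there were 0.977, 0.948 and 0.836 Cdkn1c reads per Phlda2 read in induced libraries, against 2.26, 2.15 and 2.61 in KO libraries. The ratio was below 1 in each induced library and above 2 in each KO library. Cdkn1c held 44.8 ± 1.27% of the domain's member reads in induced cells and 65.3 ± 2.61% in KO cells, and Phlda2 held 48.9 ± 2.67% in induced cells and 28.0 ± 1.70% in KO cells (SD, n = 3 each). Ascl2 likewise had 0.0459 ± 0.00841 reads per Phlda2 read in induced cells and 0.126 ± 0.0125 in KO cells (SD, n = 3 each). The ratio of Kcnq1ot1 to Cdkn1c reads was 0.0889, 0.0882 and 0.0496 in induced libraries and 0.0398, 0.0462 and 0.0199 in KO libraries. It was higher in all induced libraries, though replicate 3 of the induced group came close to the KO values.

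Levels per length put the members in an order within each group. They are in CPM per kilobase of exon that no other gene shares on the same strand in GENCODE M21. In induced cells H19 came first at 338 ± 13.8 CPM per kb, then Phlda2 at 75.4 ± 8.97, Cdkn1c at 37.9 ± 1.29, Ascl2 at 2.36 ± 0.181, Igf2 at 1.20 ± 0.160 and Slc22a18 at 0.490 ± 0.0772 CPM per kb (SD, n = 3). Kcnq1 at 0.0771 ± 0.0212 and Kcnq1ot1 at 0.0624 ± 0.0169 CPM per kb ended the order and overlapped each other, and no other neighbours in it did. In KO cells Cdkn1c was first at 97.8 ± 17.5 CPM per kb, then Phlda2 at 75.6 ± 6.15, Ascl2 at 6.59 ± 0.987, Igf2 at 3.57 ± 0.485 and Slc22a18 at 0.676 ± 0.224 CPM per kb (SD, n = 3). Below them Kcnq1 at 0.349 ± 0.0627 overlapped H19 at 0.303 ± 0.0843 CPM per kb, and Kcnq1ot1 was last at 0.0723 ± 0.0192. Apart from the move of H19, which was first in induced cells and next to last in KO cells, Cdkn1c and Phlda2 changed places, and the order of Ascl2, Igf2, Slc22a18, Kcnq1 and Kcnq1ot1 was the same in both groups.

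How strands are counted bears on Cdkn1c and H19. When reads of both strands are counted together, reads in the overlap of genes on opposite strands are dropped. For Cdkn1c, which shares 625 bases with the antisense model Gm44732, the unstranded column kept 0.419, 0.403 and 0.42 of the stranded reads in induced libraries and 0.43, 0.426 and 0.421 in KO libraries. The loss was alike in all 6 libraries, and the log2 fold change was -1.40 with unstranded counts. For H19, which shares bases with the opposite-strand models Gm27483 and Gm27786, the share kept was 0.75, 0.762 and 0.756 in induced libraries and 0.8, 0.8 and 0.938 in KO libraries, and the unstranded log2 fold change was 9.96. The authors' deposited table gives 9.97 for H19, -1.51 for Igf2, -1.40 for Cdkn1c, -0.20 for Kcnq1ot1, -2.15 for Kcnq1, 0.00 for Phlda2, -1.48 for Ascl2 and -0.46 for Slc22a18 as log2 fold changes.

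**Figure D3:**
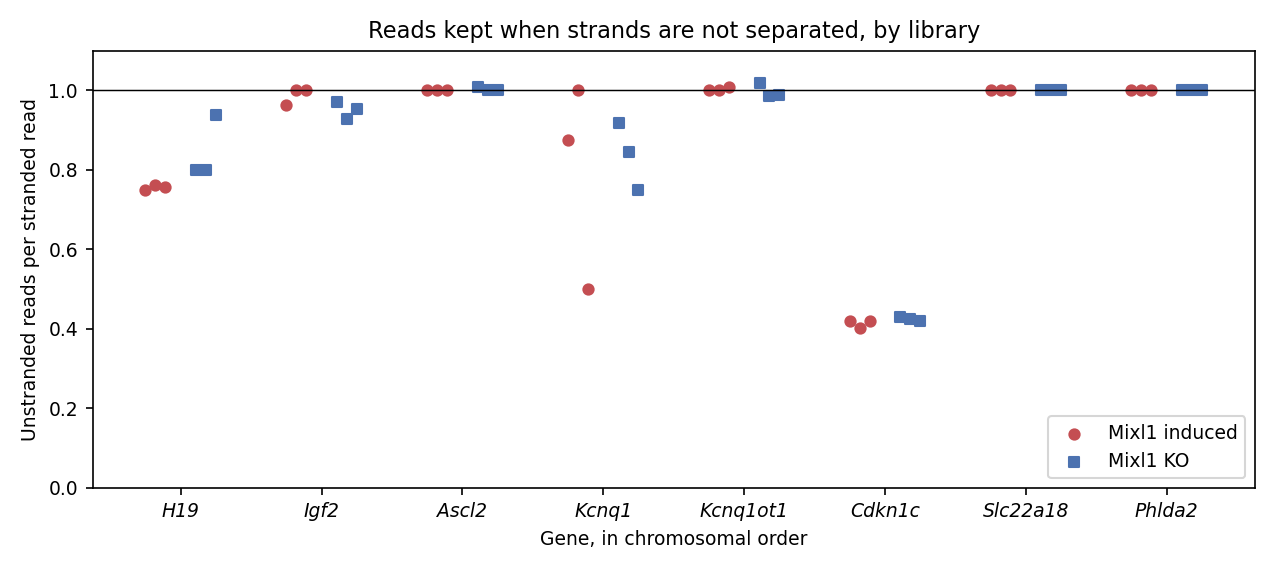
Reads of each member in the unstranded column per read in the stranded column, for each library, induced (red circles) left of KO (blue squares). Cdkn1c lies between 0.403 and 0.43 in all 6 libraries, H19 between 0.75 and 0.938, and Phlda2, Ascl2 and Slc22a18 lie close to 1, while Kcnq1, with 4 to 32 reads per library, lies between 0.5 and 1.

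Kcnq1 and Kcnq1ot1 share 121 exonic bases on opposite strands. Reads on the strand opposite to Kcnq1ot1 made up 0% to 3.95% of its stranded reads in induced libraries and 2.58% to 9% in KO libraries, and those opposite to Kcnq1 came to at most 1 read per library.

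Promoter windows, from 250 bases before to 50 bases after the annotated start, were matched in the RefSeq table (GRCm38.p6) for 5 members, Igf2, Ascl2, Kcnq1ot1, Slc22a18 and Phlda2. Those of the non-coding RNA and of a lower and a level gene of its domain are shown. Capitals mark the letters CCAAT and TATAAA on either strand (ATTGG and TTTATA when read from the other one).
Kcnq1ot1, chr7:143296498-143296797, minus strand: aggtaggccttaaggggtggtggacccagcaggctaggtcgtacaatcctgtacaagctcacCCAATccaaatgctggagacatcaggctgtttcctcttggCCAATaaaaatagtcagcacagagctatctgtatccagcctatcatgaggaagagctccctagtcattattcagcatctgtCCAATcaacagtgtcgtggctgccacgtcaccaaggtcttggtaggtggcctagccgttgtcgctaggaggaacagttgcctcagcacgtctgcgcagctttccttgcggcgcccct
Ascl2, chr7:142969215-142969514, minus strand: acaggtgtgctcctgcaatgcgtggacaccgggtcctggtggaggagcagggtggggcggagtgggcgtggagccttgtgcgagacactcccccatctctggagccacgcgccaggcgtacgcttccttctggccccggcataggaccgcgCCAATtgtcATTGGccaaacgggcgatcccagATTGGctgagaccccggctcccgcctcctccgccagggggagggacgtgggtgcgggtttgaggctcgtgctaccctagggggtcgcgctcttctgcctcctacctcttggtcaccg
Phlda2, chr7:143502475-143502774, minus strand: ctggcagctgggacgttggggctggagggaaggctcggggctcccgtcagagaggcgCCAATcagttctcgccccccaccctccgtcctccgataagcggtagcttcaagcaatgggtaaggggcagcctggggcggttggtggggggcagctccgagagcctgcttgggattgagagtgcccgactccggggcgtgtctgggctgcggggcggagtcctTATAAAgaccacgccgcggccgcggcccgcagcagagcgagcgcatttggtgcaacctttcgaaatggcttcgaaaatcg
CCAAT was found 3 times in the Kcnq1ot1 window, 3 times in that of Ascl2 and 1 time in that of Phlda2, where TATAAA also occurred 1 time. Of 32851 windows of the same length, 37.4% held CCAAT at least 1 time, 3.37% held it 3 times or more, and 13.6% held TATAAA. The core of a site of the imprint-protecting factor ZFP57, TGCCGC, was in none of the 3 windows shown and in 11.6% of all. An Igf2 window that is not shown held it 1 time. The GC content was 53.3% for Kcnq1ot1, 67.0% for Ascl2 and 65.7% for Phlda2, with 9, 23 and 26 CpG sites, against medians of 52.7% and 7 CpG sites over all windows. These matches describe letters only.

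Other genes of the Kcnq1ot1 domain went both ways. Of 8 tested, 3 rose, 2 fell and 3 did not pass, with a median log2 fold change of 0.07. Cd81, a tetraspanin gene, rose to 249.9 ± 13.5 CPM in induced cells, against 208 ± 8.09 CPM in KO cells (SD, n = 3 each; log2 fold change 0.26, edgeR adjusted p = 6.66e-05), and Tssc4 and the nucleosome assembly gene Nap1l4 rose by 0.30 and 0.17 on the log2 scale. Osbpl5, a lipid transfer gene that is imprinted in placenta, fell by 0.56 (edgeR, adjusted p = 0.000161), as did the low-expressed Tnfrsf26 (log2 fold change -1.51; edgeR, adjusted p = 0.00171). Cars, Tnfrsf22 and Tnfrsf23 did not pass. Between H19 and Osbpl5, 11 genes that are not members were tested, and 54.5% of them passed, 3 higher and 3 lower.

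On the far side of H19, the fast troponin genes Tnnt3 and Tnni2 rose. Tnnt3 was at 12.7 ± 0.254 CPM in induced cells and 2.37 ± 0.612 CPM in KO cells (SD, n = 3 each), a log2 fold change of 2.41 (edgeR, adjusted p = 4.11e-12). Tnni2, with under 1 CPM in either group, had a log2 fold change of 2.62 (edgeR, adjusted p = 0.000148). Mrpl23, the gene nearest to H19 on that side, rose by 0.43 on the log2 scale (edgeR, adjusted p = 0.000573), and the lysosomal protease gene Ctsd fell by 0.51. Of the 8 flanking genes tested, which lie on either side of the domains, 5 rose and 1 fell, with a median of 0.38. Dhcr7, beyond Osbpl5, was among those that rose (0.52). In the window from 5 Mb before H19 to 5 Mb after Osbpl5, 44 of 101 tested non-members were higher and 21 lower (64.4% passed, median 0.15), against 359 higher and 309 lower of 1151 tested on chromosome 7. The largest changes among protein-coding genes there with at least 1 CPM in the higher group were Nkx6-2, a neural tube homeobox gene at a distance of -2997 kb from the H19 start, at 9.10, the olfactory receptor gene Olfr539 at -3.88 and the homeobox gene Msx3 at 2.97 on the log2 scale.

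**Figure D4:**
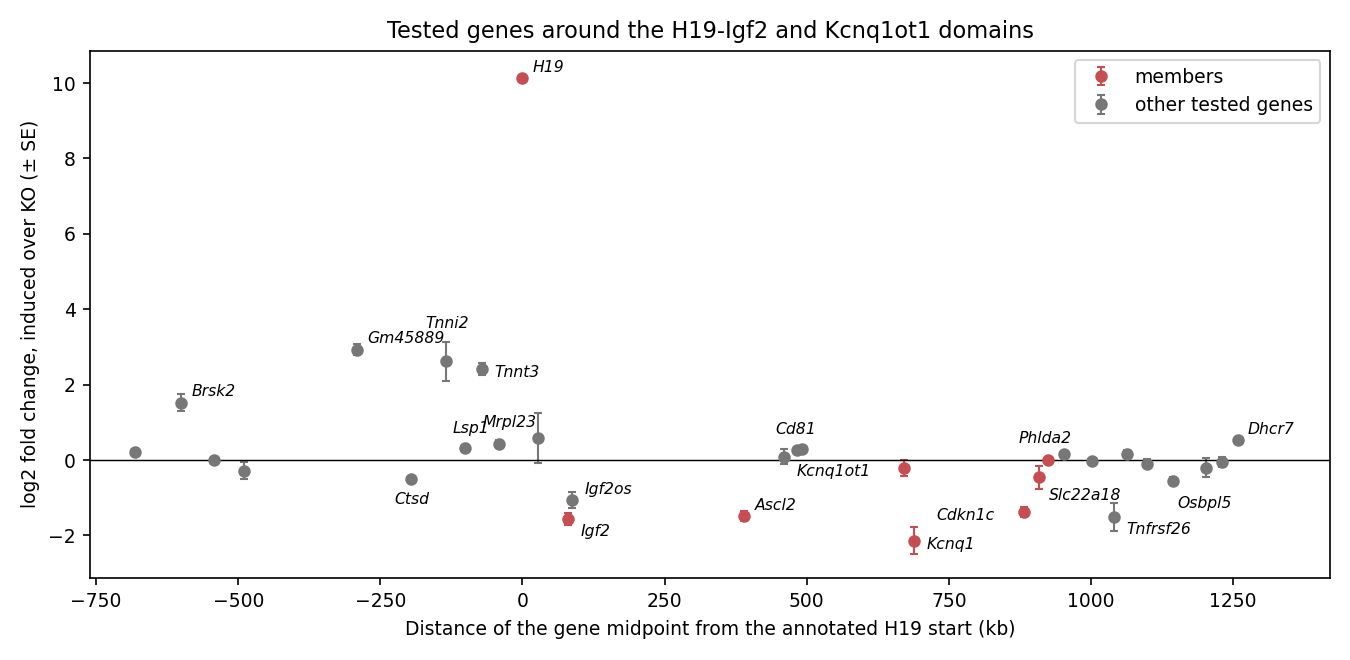
Log2 fold change, induced over KO, with its standard error for each tested gene against the distance of its midpoint from the annotated start of H19, members in red and other genes in grey. H19 stands at 10.13, and the other members lie between -2.14 (Kcnq1) and 0.00 (Phlda2). The standard errors drawn for H19 (0.09) and Kcnq1 (0.35) are smaller than those the authors give (0.25 and 0.56).

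Genes were ranked by how like their profile over the 6 libraries was to that of a member. The measure was the root mean square distance between centred log2 CPM profiles. The ranking covered 10689 non-member genes with a mean of at least 5 CPM. It left out predicted models, named by a Gm number or Rik, and repeated symbols. Nearest to H19 were Lmo1 (distance 0.83), a LIM-only cofactor gene, and Nkx6-2 (0.96), both on chromosome 7, and Optc (1.27), a gene for a matrix protein of the eye. Lmo1 had 78.9, 81.6 and 81.2 CPM in induced libraries and 0.146, 0.110 and 0.158 CPM in KO libraries. Igf2 was nearest to Creg1 (0.08), Mllt6 (0.08) and Lrrc15 (0.10), and Cdkn1c to the forkhead factor gene Foxo4 (0.03), the lactate dehydrogenase gene Ldhb (0.05) and Klhl24 (0.07). Kcnq1ot1 was nearest to the collagen genes Col7a1 (0.13) and Col3a1 (0.19) and to Prelid3a (0.18). As for Kcnq1ot1, replicate 3 was the lowest library of each group for these 3 genes, a feature for which the distance selects. The libraries that set these distances are the same 6 for all genes.

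Genes of IGF signalling, where IGF2 acts, went both ways. Of 14 tested, 4 rose and 6 fell, with a median of -0.13. Igfbp3, for the main carrier protein of IGFs, fell to 79.3 ± 8.08 CPM in induced cells, against 1179.9 ± 30.8 CPM in KO cells (SD, n = 3 each; log2 fold change -3.89, edgeR adjusted p = 4.1e-21). Pappa, for a protease that frees IGFs from binding proteins, rose to 68.0 ± 5.66 CPM in induced cells, against 5.89 ± 0.495 CPM in KO cells (SD, n = 3 each; log2 fold change 3.53, edgeR adjusted p = 3.81e-19). Igf1, the other IGF ligand gene, fell by 3.44 on the log2 scale and, like Igf2, was low in both groups, at 0.684 CPM in induced cells and 7.41 CPM in KO cells. The adaptor gene Irs2 rose by 1.27. The receptor genes Igf1r and Igf2r, the second of which encodes the receptor that clears IGF2 and is itself imprinted, rose by 0.26 and 0.47. Of 5 genes for proteins that bind Igf2 mRNA, Lin28b (1.01), Lin28a (0.87) and Igf2bp2 (0.60) rose, while Igf2bp1 (0.08) and Igf2bp3 (0.00) did not pass (median 0.60).

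The other cyclin-dependent kinase inhibitors, relatives of Cdkn1c in function, also went both ways. Of 6 tested, 3 fell and 1 rose, with a median of -0.35. Cdkn1a, for p21, fell to 206 ± 10.5 CPM in induced cells, against 353 ± 12.2 CPM in KO cells (SD, n = 3 each; log2 fold change -0.78, edgeR adjusted p = 3.38e-12). Cdkn2b (-1.31) and Cdkn2a (-1.24) fell as well, and Cdkn2d rose by 0.69. Cdkn1b, for p27, did not pass (0.11). Of 8 tested G1 cyclin and kinase genes, on whose products these inhibitors act, 4 rose and 3 fell (median 0.01), with Ccnd2 at 0.50, Ccne1 at 0.29, Ccnd1 at -0.38 and Cdk6 at -0.31. The calls of Ccnd3 (0.11) and Ccne2 (-0.24) were each lost when any 1 of 4 libraries was left out (edgeR, adjusted p between 0.0548 and 0.126).

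Kcnq3, a channel gene related to Kcnq1, fell to 4.37 ± 0.378 CPM in induced cells, against 14.4 ± 1.09 CPM in KO cells (SD, n = 3 each; log2 fold change -1.73, edgeR adjusted p = 3.51e-11). Of the relatives of Phlda2, Phlda1 rose by 1.46 (edgeR, adjusted p = 2.13e-13) and Phlda3 fell by 0.15 (edgeR, adjusted p = 0.0184). The Phlda3 call was lost without KO replicate 3 or induced replicate 1 or 3 (edgeR, adjusted p = 0.0975, 0.0699 and 0.0609).

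**Figure D5:**
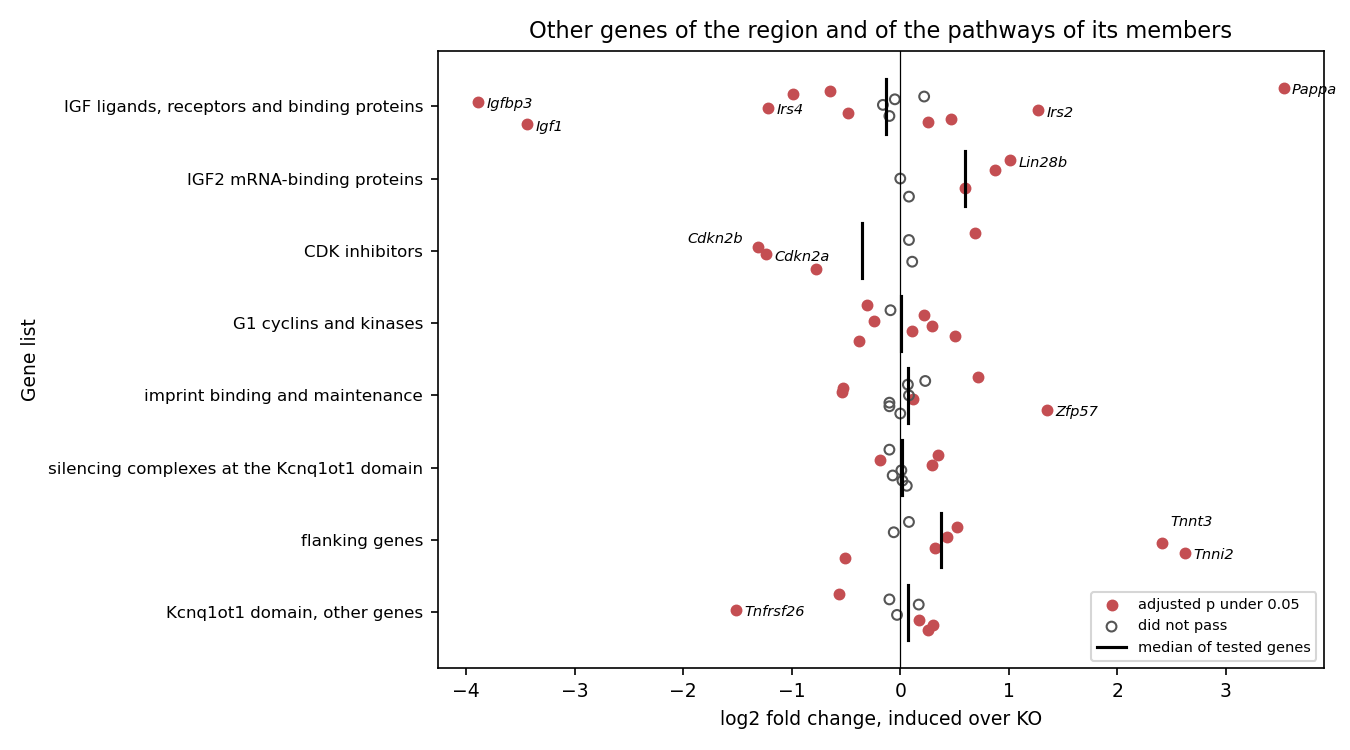
Log2 fold change, induced over KO, of each tested gene in 8 lists of neighbouring and pathway genes, filled where the edgeR adjusted p was under 0.05, with the median of each list as a bar. Among the lists drawn, the widest spread is that of IGF genes, from Igfbp3 at -3.89 to Pappa at 3.53, and the narrowest that of the silencing complexes, from -0.19 to 0.35.

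Genes for factors that read or keep imprints went both ways. Of 14 listed, 11 were tested, and Ctcfl, with 0 reads in all libraries, Dppa3 and Dnmt3l were not. Of the 11, 3 rose, 2 fell and 6 did not pass, with a median of 0.07. Zfp57, for the zinc-finger protein that protects methylated imprints, rose to 261 ± 4.67 CPM in induced cells, against 103 ± 11.1 CPM in KO cells (SD, n = 3 each; log2 fold change 1.35, edgeR adjusted p = 2.71e-13), and Tet3 rose by 0.72. The de novo methyltransferase genes Dnmt3a and Dnmt3b had log2 fold changes of -0.54 and -0.53, whereas Dnmt1, for the maintenance enzyme, rose by 0.12 (edgeR, adjusted p = 0.0196). The Dnmt1 call was lost without KO replicate 1 or 2 or induced replicate 1 (edgeR, adjusted p = 0.0816, 0.0686 and 0.0566). Ctcf, whose product binds the unmethylated H19-Igf2 control region, was at 159.9 ± 7.36 CPM in induced cells and 159.7 ± 5.69 CPM in KO cells (SD, n = 3 each) and did not pass (edgeR, adjusted p = 0.982). DNA methylation was not measured.

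Of 8 genes for complexes that act with Kcnq1ot1 in silencing, 2 rose, 1 fell and 5 did not pass, with a median of 0.02. Ehmt2, for the histone methyltransferase G9a, rose by 0.29 (edgeR, adjusted p = 6.87e-06) and Ring1 by 0.35, and Rnf2 fell by 0.19 (edgeR, adjusted p = 0.00565). Lower calls numbered 2 under 5 of the other settings and without KO replicate 2 or induced replicate 3. Hnrnpk, for a protein that links such RNAs to Polycomb complexes, did not pass (-0.10; edgeR, adjusted p = 0.0525), nor did the Polycomb genes Ezh2, Eed and Suz12.

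Imprinted genes outside distal chromosome 7 differed too. Of 10 tested in a list of imprinted genes that are often expressed together with H19, 7 fell and 2 rose, with a median of -0.41. One of the 7, Gnas, had a log2 fold change of -0.31 that turned to 1.73 with unstranded counts. Grb10 fell to 3.31 ± 0.104 CPM in induced cells, against 689 ± 24.7 CPM in KO cells (SD, n = 3 each; log2 fold change -7.70, edgeR adjusted p = 5.09e-27). Slc38a4 and Dcn fell as well, with log2 fold changes of -10.86 and -2.64. Mest rose to 2965 ± 245 CPM in induced cells, against 279.7 ± 12.3 CPM in KO cells (SD, n = 3 each; log2 fold change 3.41, edgeR adjusted p = 1.16e-20). Meg3, a maternally expressed non-coding RNA like H19 and chosen after its value was seen, was at 0.933 ± 0.225 CPM in induced cells and 1240.2 ± 213 CPM in KO cells (SD, n = 3 each; log2 fold change -10.39, edgeR adjusted p = 1.83e-07), so that these 2 non-coding RNAs were each nearly silent in a different group. Dlk1, the paternally expressed gene of the Meg3 domain, did not pass (-0.05; edgeR, adjusted p = 0.513).

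Markers of other cell types that could carry these transcripts were read beside them. Epiblast stem cell markers were present in both groups, 3 of 7 higher and 4 lower in induced cells, with a summed level of 1289 to 1322 CPM in induced libraries and 1729 to 1818 CPM in KO libraries. Fibroblast markers, as of the feeder cells, were 3 higher and 5 lower of 10, and their sums overlapped, at 566 to 736 CPM in induced libraries and 681 to 857 CPM in KO libraries. All 9 macrophage markers fell, and their sum was 47.0 to 59.2 CPM in induced libraries and 319.7 to 461 CPM in KO libraries. Of 8 trophoblast markers 5 were tested, with 3 higher, Gata3 (3.83) among them, and 2 lower, Cdx2 (-3.77) among them, and sums of 67.2 to 73.5 CPM in induced libraries and 178 to 229 CPM in KO libraries. Cdx2, which caudal epiblast also expresses, carried most of the KO sum, at 13.2 ± 1.38 CPM in induced cells and 180.3 ± 27.0 CPM in KO cells (SD, n = 3 each). Gcm1, the other lower trophoblast marker, was at 0.0935 ± 0.0868 CPM in induced cells and 1.15 ± 0.192 CPM in KO cells (SD, n = 3 each). Its log2 fold change was -3.62. Tpbpa and Prl3d1, which mark only some placental trophoblast cells, had 0 reads in all libraries. Of 8 visceral and yolk sac endoderm markers 3 were tested and 2 fell (1 without KO replicate 1), sums were 3.37 to 3.66 CPM in induced libraries and 4.47 to 6.23 CPM in KO libraries, and Ttr and Hnf4a had 0 reads. The sums of the macrophage, trophoblast, endoderm and epiblast markers were thus all lower in induced cells without overlap, as were Igf2, Cdkn1c, Kcnq1 and Ascl2. Pou5f1 carried most of the epiblast sum, at 807 ± 21.7 CPM in induced cells and 1294 ± 44.5 CPM in KO cells (SD, n = 3 each). Cdx2 set the direction of the trophoblast sum, and both lists also hold markers that rose, such as Sox2 and Gata3. The part of these cell types in the members' values was not tested.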

How the data were processed

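RNA-seq counts of 6 libraries were analysed, 3 per group, grouped by their titles. The submitters' processing notes name STAR, DESeq2, bcl2fastq and the mm10 build, without tool versions, and the annotation is not given in the sources used here. Per the labels' protocols, the library kit was stranded and selected mRNA. The authors deposited raw read counts per gene, unstranded and for each strand. They also deposited a table of their comparison which holds, per the file headers, a mean normalised count as a signal value, log2 fold changes, a test score, p-values and a −log10 of the adjusted p. Only its log2 fold changes, and their standard errors for H19 and Kcnq1, are quoted here.

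The count column of reads opposite to the first read was used for the comparisons. The unstranded column served as an alternative, and the column of the other strand only for strand shares. Thus 0 columns of per-sample values were left unread. Rows that name no gene held 15.12% to 17.61% of reads and were kept out. Identifiers were matched to GENCODE M21 (GRCm38), which named 55144 of 55471. Multimapped reads, 6.794% to 6.974% of reads in induced libraries and 7.425% to 7.662% in KO libraries, are not in the counts.

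Genes that passed filterByExpr were fitted in edgeR 4.0.16 (R 4.3.3; TMM scaling, robust quasi-likelihood, group as the only term; tested on simulated data), with two-sided tests, Benjamini-Hochberg adjustment over all 15091 genes and a threshold of 0.05. The standard error of log2 fold changes had a median of 0.0837. DESeq2 1.42.0 and limma-voom 3.58.1 were alternatives, beside other scaling, other filters, unstranded counts, a replicate block and leaving out each library.

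The members and gene lists were chosen with earlier results of these data known. The genes to be named were all members, from each of 17 lists the up to 4 tested genes with the smallest p, the 3 protein-coding neighbours with the largest change and a mean of at least 1 CPM, and the 3 genes most alike to H19, Igf2, Cdkn1c and Kcnq1ot1. Other list genes named were chosen after their values were seen, to name those that bear on a count. Some genes that meet the rule are not reported here.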

Additional observations from a re-analysis of the deposited data

Results flagged for a closer look

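A signal appeared in a count column that the comparisons do not use. On the strand opposite to H19, the induced libraries held 12, 6 and 6 reads, 24 in all, and the KO libraries 0, 0 and 0 reads. These were 0.0723%, 0.0409% and 0.0423% of the stranded H19 reads in the induced libraries. In the KO libraries 0 of 10, 15 and 16 stranded reads leaves exact 95% upper bounds of 30.8%, 21.8% and 20.6%, so a difference in the share was not detectable at this depth. The bounds cover counting error only.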

How the results depend on the processing

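No alternative turned the direction of H19, Igf2, Cdkn1c, Kcnq1, Ascl2 or a domain ratio. Of 140 called genes of the lists and the chromosome 7 window, 1 turned, Gnas with unstranded counts (1.73). Unstranded counts moved the log2 ratio of the summed H19-Igf2 members to 6.30, that of the Kcnq1ot1 members to -0.56 and the log2 H19-to-Igf2 ratio to 11.50. In that column the induced libraries keep 0.403 to 0.42 of the Cdkn1c reads and 0.75 to 0.762 of the H19 reads. The mean of the member log2 fold changes in place of the sum gave 4.28 for the H19-Igf2 domain, since it weights Igf2 like H19.

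Without single libraries, log2 fold changes were 9.89 to 10.26 for H19, -1.69 to -1.48 for Igf2, -1.45 to -1.21 for Cdkn1c, -0.40 to 0.00 for Kcnq1ot1, -2.32 to -1.95 for Kcnq1, -0.11 to 0.06 for Phlda2, -1.56 to -1.36 for Ascl2 and -0.69 to -0.24 for Slc22a18. Genes called numbered 4337 to 4556 higher and 4488 to 4690 lower, listed genes 35 to 39 and 47 to 52, and distal chromosome 7 neighbours 41 to 46 and 20 to 22. The domain log2 ratios were 6.48 to 6.69 and -0.89 to -0.70, and the log2 H19-to-Igf2 ratio 11.60 to 11.84.

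Over all genes, libraries of the same replicate number were not more alike than others. Correlations of same-numbered deviations were -0.003, 0.046 and 0.04, and those of other numbers lay between -0.103 and 0.064. Whether a number marks a shared batch is not stated, and these values do not settle it. With the number as a replicate block, log2 fold changes were 10.13 for H19, -1.56 for Igf2 and -1.35 for Cdkn1c, and 4789 genes were called higher and 4858 lower. Imprint maintenance genes had 4 lower calls with the block. Of the counts per list, 10 moved by over 1.5 times under other settings and 7 without a library, all of them counts of few genes. Slc22a18 has no value with at least 1 CPM in 3 libraries. Kcnq1, Slc22a18 and, in KO cells, H19 rest on few reads, which limits their precision.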
